A study of Triticum aestivum with 4 samples.

Results

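Of 61115 probe sets on Affymetrix wheat arrays of bread wheat flag leaf, 406 had a deposited intensity of at least 2500 on the array of unheated progeny of unprimed plants, and 215 of these 406 (53.0%) stayed within 2-fold when the progeny were heated, in both seed backgrounds. These 215 abundant and heat-stable probe sets are described here. A probe set is a group of short probes for 1 transcript or a family of transcripts. The probe sets were chosen by the measured values: at least 2500 on NC, with both heat changes, log2 NH minus NC and log2 PH minus PC, between -1 and 1. Control probe sets were left out beforehand.

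The plants were cultivar Yangmai 16, grown in pots, and each of the 4 groups was measured on 1 array. PH were heated progeny of heat-primed parents, PC unheated progeny of heat-primed parents, NH heated progeny of unprimed parents, and NC unheated progeny of unprimed parents. Day and night temperatures of the heated progeny were 34 and 30 °C, and those of the unheated progeny 26 and 22 °C; the treatment began on day 10 after anthesis and lasted 6 days. The parents were primed with 2-day spells of 32 and 28 °C when they had 7 and 9 leaves, and with 34 and 30 °C over 7 days that also began on day 10 after anthesis. Temperature treatments were given in separate growth chambers, so chamber and treatment cannot be told apart. There were no replicates: differences are given without a replicate error and none was tested.

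The flag leaf is the main source of sugar for the filling grain. A large part of a leaf's messenger RNA serves photosynthesis: light harvesting and electron transport in the thylakoid membrane, and carbon fixation by Rubisco in the stroma. A leaf also keeps a large pool of RNAs for general upkeep, such as those for translation factors, cytoskeleton proteins and proton pumps, and genes of this kind are often chosen as references when other transcripts are measured. Heat is known to impair photosystem II and Rubisco activation and to redirect transcription toward protein protection.

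Intensities are on a linear scale as deposited. They depend on the probes as well as on the RNA, so an intensity above 2500 says that a probe set was bright and does not rank its transcript against others. In whole leaves, fewer cells of a type and less RNA per cell cannot be told apart. The leaf label was compared with markers that have a symbol. PsbO, PsbP, petC, PRK and rbcl, all of photosynthesis, had bright probe sets, rbcl in 2 of its 11 above the floor. The list of leaf markers also held RbcS, Cab/Lhcb and FBP, and no bright probe set carried any of these names. The genes named are thus the part of the list that was bright. Of 4 named genes of the Calvin cycle and Rubisco group, all above the floor, 3 were bright. Of 27 probe sets for 15 grain storage or seed genes, 0 were bright; their intensities summed to 764 on PH, 530 on PC, 1782 on NH and 503 on NC, and no single one was above 659. The anther genes raftin1a and raftin1b summed to between 25.3 and 27.8. The spiked poly-A controls had a median ratio of 0.812 for PH over PC and 1.87 for NH over NC, and the hybridization controls 0.829 and 1.02. The 3' to 5' signal ratio of the ubiquitin controls was 0.992 on PH against 0.750 on PC, and 0.929 on NH against 0.645 on NC. The part of these differences in the heat changes below was not tested.

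The bright probe sets that were not stable were mostly lower with heat. They were chosen on NC, an unheated array, so probe sets bright only with heat are absent and falls are favoured. At 2500 or more were 401 probe sets on NH and 406 on NC. Of the 406, 124 were lower past 2-fold in both seed backgrounds, 48 were lower in NH against NC alone and 7 in PH against PC alone. Higher past 2-fold were 5 in both, 4 in NH against NC alone and 3 in PH against PC alone. Over all probe sets above the intensity floor of 12.3, the median of all values, 21.6% passed 2-fold between NH and NC and 19.7% between PH and PC, and 74.6% of the 33561 above it on any array were within 2-fold in both comparisons. Among bright probe sets with a functional gene name outside the stable set, Pgk-1, phosphoglycerate kinase, had 627 on PH against 3085 on PC and 292 on NH against 3247 on NC. PRK, the phosphoribulokinase of the Calvin cycle, had 3493 on PH against 6877 on PC, and 1275 on NH against 5887 on NC; its log2 difference was -0.98 in the primed and -2.21 in the unprimed background. The catalase CAT1 likewise missed the range only in NH against NC, with log2 differences of -0.93 and -1.27. SAHH, S-adenosylhomocysteine hydrolase, petC, the Rieske iron-sulfur protein of photosynthetic electron transport, and Trx-M, a thioredoxin, complete the 6 named genes outside it.

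**Figure D1:**
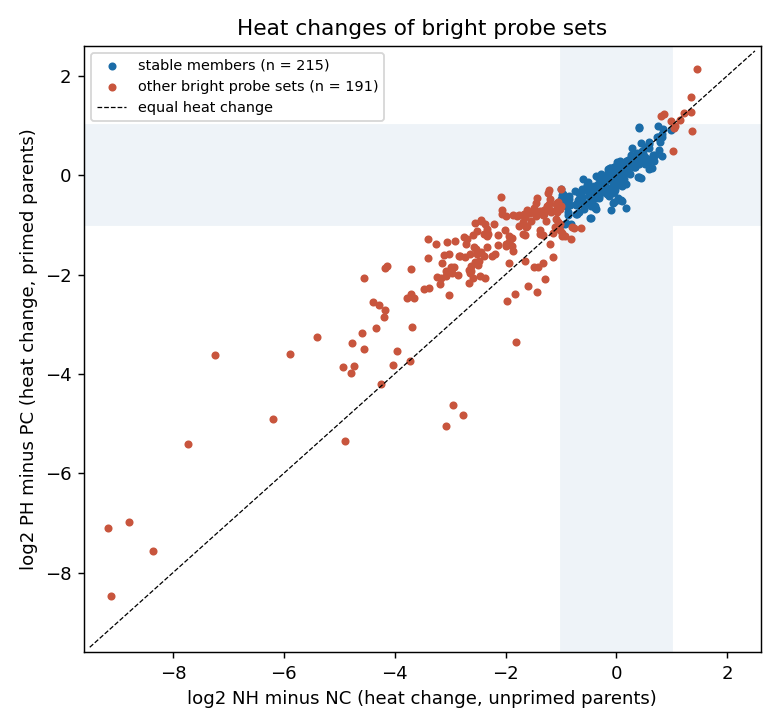
Each point is 1 of the 406 probe sets with an intensity of at least 2500 on NC, with the heat change in progeny of unprimed plants (log2 NH minus NC) on the x axis and that in progeny of primed plants (log2 PH minus PC) on the y axis; shading marks changes within 2-fold. The 215 stable probe sets fill the square where the shaded bands cross, and 124 of the 191 others lie below it on both axes.

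A smaller share of bright than of dimmer probe sets was stable, and a larger share was lower with heat. Within 2-fold in both comparisons were 79.6% of 20430 probe sets with 12.3 to 100 on NC, 64.1% of 7489 with 100 to 500, 62.1% of 1577 with 500 to 1000 and 59.4% of 1036 with 1000 to 2500. From 2500 to 5000 the share was 52.7% of 292 and from 5000 to 10000 it was 52.8% of 106, and at 10000 or more 5 of 8 were stable. The share lower in both comparisons was 3.90% in the dimmest of these bands and 32.9% from 2500 to 5000, while the share higher in both was 6.51% and 1.71%. In the dimmest band a fall past 2-fold could be seen only where the value on NC was at least 2 times the floor, since lower values were set to it. These bands were formed on NC, so they hold no probe set that was bright only with heat.

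**Figure D2:**
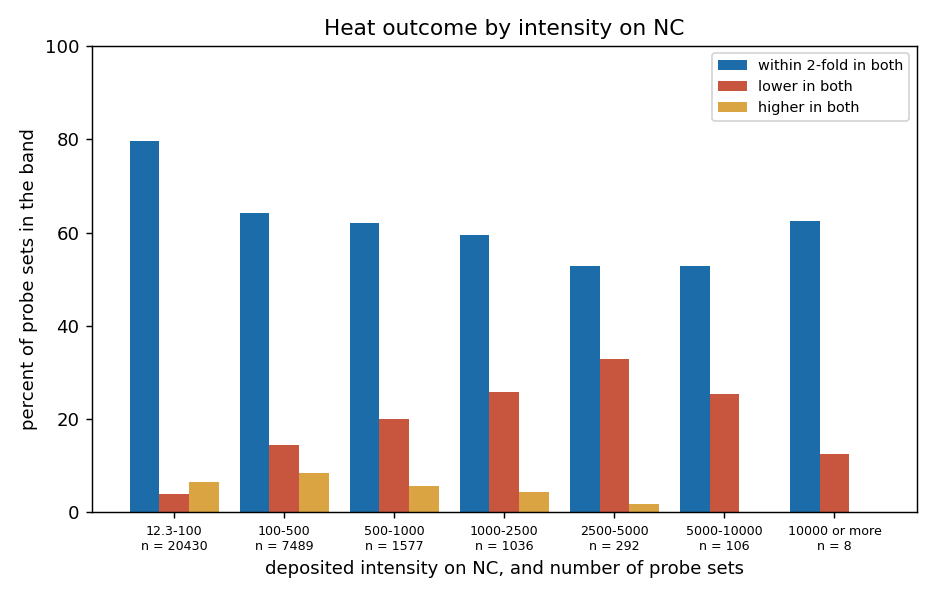
Bars give the percent of probe sets in each band of NC intensity that stayed within 2-fold in both heat comparisons, that were lower in both or that were higher in both. The stable share is 79.6% in the dimmest band and 52.7% from 2500 to 5000, where 32.9% were lower in both.

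Since both heat changes chose the stable probe sets, their values in these comparisons are a description and support nothing. Log2 PH minus PC had a median of -0.13 and an SD of 0.41 over the 215 probe sets, and log2 NH minus NC a median of -0.07 and an SD of 0.47. The quartiles were -0.41 and 0.19 for PH against PC, and -0.46 and 0.25 for NH against NC. Within 0.25 of no change were 87 probe sets (40.5%) for PH against PC, where 34% of all above the floor were, and 82 (38.1%) for NH against NC, where 32.3% of all were. In both comparisons 57 (26.5%) were so close. Over all 33561 probe sets above the floor on any array, 21.2% were within 0.25 in both. Both changes were below 0 for 110 of the 215 and above 0 for 71, and the signs differed for 34; of the 406 bright probe sets these shares were 71.2%, 20.4% and 8.37%. At least 0.5 higher in both were 13 (16.9% of all above the floor), and at least 0.5 lower in both were 24 (14.8% of all). Across the 215 probe sets, which share arrays and are not independent, the heat changes of the backgrounds had a Pearson correlation of 0.844. Over all 406 bright probe sets, which the limits on heat changes do not cut, it was 0.929. The pairs of arrays have no array in common. The heat changes of the backgrounds differed by at least 0.5 for 14 of the 215, and by at least 1 for 0. Of the 14, 7 were higher and 7 lower in the primed background. Of the 406 bright probe sets, 136 were higher and 18 lower by at least 0.5, and 69 differed by at least 1. The limits on both heat changes narrow these differences in the stable set, so its counts describe the selection.

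The values next to the limits of the selection were as follows, where a heat change is given only for bright probe sets whose other heat change lay within the limits. Just inside the limit of 2500 on NC were LOC543185, with 2528, and a probe set without a symbol, with 2531; just outside were probe sets with 2490 and 2489. For NH minus NC the last values inside were 0.986 and 0.847 at the upper end and -0.999 and -0.995 at the lower, and the first outside were 1.02 and 1.05 above and a pair at or above -1.01 below. For PH minus PC they were 0.995, 0.968, -0.988 and -0.977 inside, and 1.09, 1.199, -1.04 and -1.05 outside.

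The photosynthesis genes in the stable set differed widely in how near they came to its limits. The gene named rbcl, the large subunit of Rubisco, which fixes carbon dioxide, had 2 stable probe sets. The first had 16320 on PH against 16875 on PC and 15575 on NH against 16201 on NC. The second had 15239 on PH against 15936 on PC and 15034 on NH against 15434 on NC. Their 4 values lay within 1.08-fold and 1.06-fold, and the first held the highest value of each array, and the second the next highest among the stable ones on each array. Both carry the suffix for cross-matching probes. Whether signal is compressed at the top of the scale, which would narrow these differences, was not tested. The other 9 rbcl probe sets above the floor had values of at most 143, and 5 of them were lower past 2-fold in NH against NC or in PH against PC.

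PsbO and PsbP are the extrinsic proteins that hold and shield the manganese cluster where photosystem II splits water. PsbO had 4793 on PH against 6165 on PC and 3674 on NH against 5853 on NC, log2 differences of -0.36 and -0.67. PsbP had 4330 on PH against 5727 on PC, and 2832 on NH against 5590 on NC. Its log2 difference of -0.98 in the unprimed background lay just inside the limit, and that in the primed background was -0.40. Both genes were lowest on NH and second lowest on PH. A second, dimmer PsbP probe set had 1540 on PH against 2795 on PC and 888 on NH against 2364 on NC and was lower past 2-fold in NH against NC. Of 3 bright genes of the photosystem and light harvesting group, 2 had a stable probe set, and of 3 bright genes of the Calvin cycle and Rubisco group, 1; with 3 genes each, neither count stands apart from the 53.0% of all bright probe sets.

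Of 7 translation genes with a name, all above the floor, 1 was bright on NC, TEF1, and it was in the stable set. TEF1 is translation elongation factor 1 alpha, which brings aminoacyl-tRNA to the ribosome. Its brighter probe set had 4070 on PH against 3533 on PC and 4015 on NH against 3442 on NC. The other had 2678 on PH against 2879 on PC and 2647 on NH against 2622 on NC. The log2 heat differences were 0.20 and 0.22 for the first, in the primed and unprimed background, and -0.10 and 0.01 for the second. The transcript cluster that holds both had 4 more stable probe sets, which have no symbol, and the 6 heat changes ran from -0.38 to 0.20 for PH against PC and from -0.20 to 0.22 for NH against NC. TCTP, translationally controlled tumor protein, a conserved protein of cell growth, had 6111 on PH against 4205 on PC and 6081 on NH against 4043 on NC. Its log2 differences of 0.54 and 0.59 were alike in the backgrounds, and the unheated arrays were the lower ones in each pair.

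Of 7 cytoskeleton genes above the floor, 2 were bright on NC, and both were in the stable set, a count too small to set against the 53.0% of all bright probe sets. TUBA, an alpha-tubulin of the microtubules, had 2151 on PH against 2569 on PC and 2438 on NH against 2754 on NC, log2 differences of -0.26 and -0.18. PRO1, a profilin that binds actin monomers, had 3865 on PH against 4344 on PC and 4289 on NH against 4192 on NC, log2 differences of -0.17 and 0.03. A second, dimmer PRO1 probe set had -0.50 and -0.03.

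The plasma membrane proton pump ha1, an H+-ATPase that drives uptake across the cell membrane, had 3456 on PH against 3090 on PC and 3091 on NH against 2959 on NC. Its log2 differences were 0.16 and 0.06, and 2 dimmer probe sets of the gene had 0.14 and 0.21 for PH against PC and 0.04 and 0.04 for NH against NC. The 3 probe sets thus gave like values. TSA, a thiol-specific antioxidant protein that reduces peroxides, stood at the other end of the range: it had 2395 on PH against 4697 on PC and 2152 on NH against 4031 on NC. Its log2 differences of -0.97 and -0.91 left it just inside the limit in both backgrounds, and a second, dim TSA probe set, with 27.8 on PH against 61.3 on PC and 32.1 on NH against 64.9 on NC, was outside it. The gene named cys1 had 2 stable probe sets. One had 7443 on PH against 6461 on PC and 7410 on NH against 6795 on NC, and the other 5342 on PH against 4458 on PC and 5229 on NH against 5189 on NC. Their log2 differences were 0.20 and 0.26 for PH against PC and 0.13 and 0.01 for NH against NC.

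**Figure D3:**
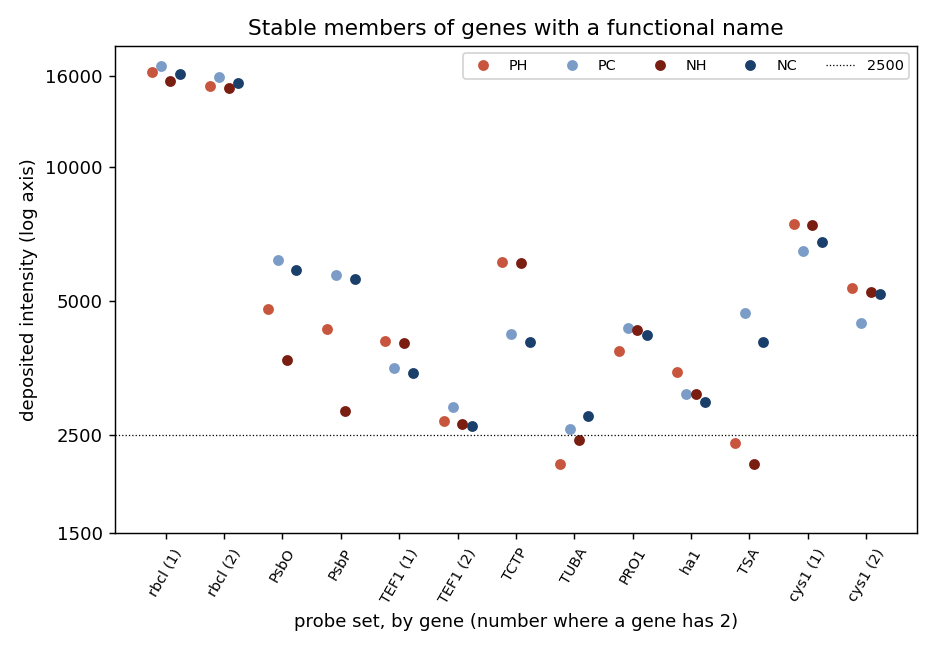
Points give the deposited intensity, on a log axis, of the 13 stable probe sets of 10 genes with a functional name on the arrays PH, PC, NH and NC; the dotted line is 2500. The rbcl probe sets lie between 15034 and 16875 on all 4 arrays, while PsbP ranges from 2832 on NH to 5727 on PC and TSA from 2152 on NH to 4697 on PC.

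In all, 53 of the 215 stable probe sets had a gene symbol. They belong to 45 genes, of which 10 have a functional name and 35, with 40 probe sets, a locus symbol alone. Above the floor were 5 of 6 named histone and chromatin genes, the 1 named ubiquitin gene, 1 of 2 chaperone genes, 5 of 6 defence and lipid transfer genes and 7 of 16 grain storage genes, and 0 of these had a bright probe set. Over the whole array 0.664% of probe sets were bright. The share was larger among the 1273 with a symbol, of which 53 were in the stable set and 28 were other bright ones. At either share few would be bright in groups of this size. The ubiquitin controls, which were left out of the selection, include probe sets with 3618 and 3446 on NC. Log2 PH minus PC of the 40 ran from -0.78 to 0.99 and log2 NH minus NC from -0.95 to 0.85. LOC543231 had 12104 on PH against 9696 on PC and 12081 on NH against 9688 on NC, a log2 difference of 0.32 in each background. LOC778410 had 8400 on PH against 8145 on PC and 7844 on NH against 7017 on NC. LOC542899 had 2 probe sets, at 3301 on PH against 3302 on PC and 3155 on NH against 3394 on NC, and at 2560 on PH against 2749 on PC and 2484 on NH against 2810 on NC. LOC543372 had 3 stable probe sets, all lower with heat, with log2 differences of -0.18 to -0.39 for PH against PC and -0.33 to -0.63 for NH against NC. LOC543434 had 2, both higher, with 0.32 and 0.33 for PH against PC and 0.54 and 0.60 for NH against NC. Of the 53, 14 probe sets of 11 genes were within 0.25 in both comparisons, and these include both probe sets of rbcl, of TEF1 and of LOC542899.

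Toward the upper limit, 5 genes with a symbol had a probe set at least 0.5 higher in both comparisons. Besides TCTP these were LOC100125712, with 4952 on PH against 2485 on PC and 4643 on NH against 2743 on NC, LOC543319, LOC543450 and LOC543171. LOC543450 had 5043 on PH against 2852 on PC and 5179 on NH against 2942 on NC, a log2 difference of 0.82 in each background. Toward the lower limit, 3 had a probe set at least 0.5 lower in both: TSA, LOC542868 and LOC542992. LOC542868 had 2594 on PH against 4016 on PC and 1755 on NH against 3300 on NC.

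Several genes had probe sets on both sides of the limit. Of the 45 genes, 21 had other probe sets above the floor, 42 in all. Of these 42, 27 were within 2-fold in both comparisons, 12 were lower past 2-fold in at least 1 and 3 higher. Over all probe sets above the floor, 74.6% were within 2-fold in both, so the 27 are not a larger share than that. Bright probe sets inside and outside the stable set were found for 4 genes: LOC543319, LOC100037609, LOC732707 and LOC542992. LOC543319 had 5 probe sets above the floor, whose log2 heat differences ran from 0.46 to 1.09, so its 2 stable probe sets and the 2 bright ones outside belong to 1 spread around the limit. The probe sets of LOC100037609 lay farther apart: the stable one had 4818 on PH against 6599 on PC and 4254 on NH against 6574 on NC, and another had 1726 on PH against 5348 on PC and 761 on NH against 5462 on NC. For LOC732707 the stable probe set had log2 differences of -0.38 and -0.95 and the other bright one -0.48 and -1.20.

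The 10 brightest stable probe sets include both of rbcl, LOC543231, LOC543448 and 1 of the cluster of TEF1. LOC543448 had 7718 on PH against 9632 on PC and 6535 on NH against 9372 on NC. The other 5 have no symbol. Of these, the brightest on NC had 10503 on PH against 12720 on PC and 8092 on NH against 12474 on NC, and the next had 12125 on PH against 12080 on PC and 12616 on NH against 11618 on NC. The first was thus lower on the heated array of each pair, and the second differed by at most 0.12 on the log2 scale.

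The kinds of probe set in the stable set differ from those of the array. The suffixes for probe sets that can match several transcripts were found on 133 of the 215 (61.9%), on 53.4% of the 191 other bright probe sets and on 20.8% of all. Among the stable ones, 62 had the suffix for cross-matching probes, 37 that for identical probes in several transcripts and 34 that for alternative transcripts of a gene. A gene symbol was given for 24.7% of the stable set, for 14.7% of the other bright probe sets and for 2.08% of all. The 215 came from 172 transcript clusters, read from their identifiers, and 72 of them share a cluster with at least 1 other, so they are not 215 separate genes. These clusters had 302 other probe sets above the floor, of which 74.5% were within 2-fold in both heat comparisons, against 74.6% of all probe sets above the floor.

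Together the 215 probe sets held nearly the same part of the summed intensity on each array: 13.4% on PH against 13.7% on PC, and 12.9% on NH against 13.7% on NC. The 191 other bright probe sets held 5.50% on PH against 11.7% on PC, and 3.75% on NH against 11.9% on NC. Since the heat changes chose both sets, this difference describes the selection. The number of probe sets at 2500 or more hardly moved, with 413 on PH against 430 on PC and 401 on NH against 406 on NC. Of the 215, 201 were also at least 2500 on PC and 156 on all 4 arrays. The limits on both heat changes keep the heated values near the unheated ones, so the count of 156 in part describes the selection. The same counts over the 191 other bright probe sets were not made.

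**Figure D4:**
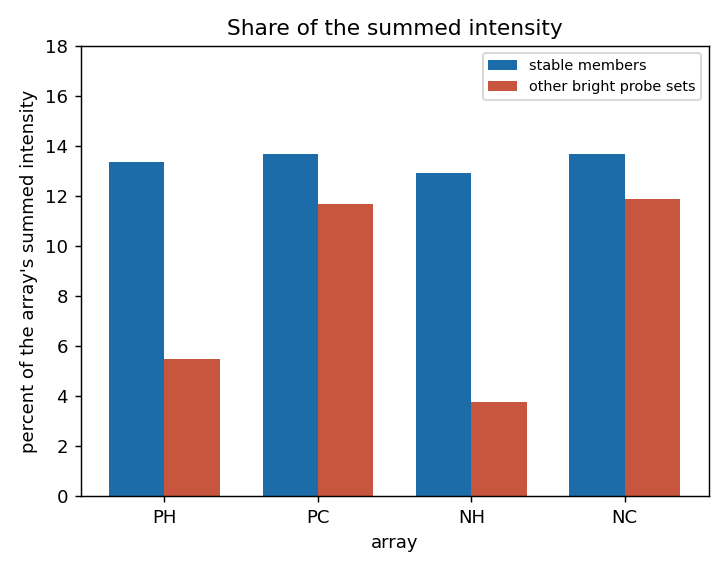
Bars give the percent of each array's summed intensity, controls left out, held by the 215 stable probe sets and by the 191 other bright probe sets. The stable set holds between 12.9% and 13.7% on the 4 arrays, and the others 5.50% on PH and 3.75% on NH against 11.7% on PC and 11.9% on NC.

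The differences with parental priming were small in the stable set. Neither priming comparison was itself part of the selection, but both use its arrays: log2 PH minus NH is the sum of log2 PC minus NC and of the difference between the heat changes, which the selection bounds. Between PC and NC, 0 of the 215 passed 2-fold, where 0.761% of all probe sets above the floor and 0.493% of the bright ones did. Log2 PC minus NC had a median of 0.04 and an SD of 0.17, and 193 of the 215 (89.8%) were within 0.25, as were 86.9% of all bright probe sets, 83.8% of the bright ones that were not stable and 69.4% of all above the floor. Between PH and NH, 2 of the 215 passed 2-fold, where 3.77% of all above the floor and 19.2% of the bright ones did. Log2 PH minus NH had a median of 0.02 and an SD of 0.27, and 148 (68.8%) were within 0.25, as were 43.8% of all bright probe sets, 15.7% of the bright ones that were not stable and 57.8% of all above the floor. The 191 other bright probe sets had medians of 0.00 for PC minus NC and 0.73 for PH minus NH, and 70 of them were higher past 2-fold in PH. For 41 of the 215 the difference between PC and NC was wider than that between NH and NC. The selection bounds the second of these differences and not the first, so the count in part describes the selection. The same count over other probe sets was not made.

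**Figure D5:**
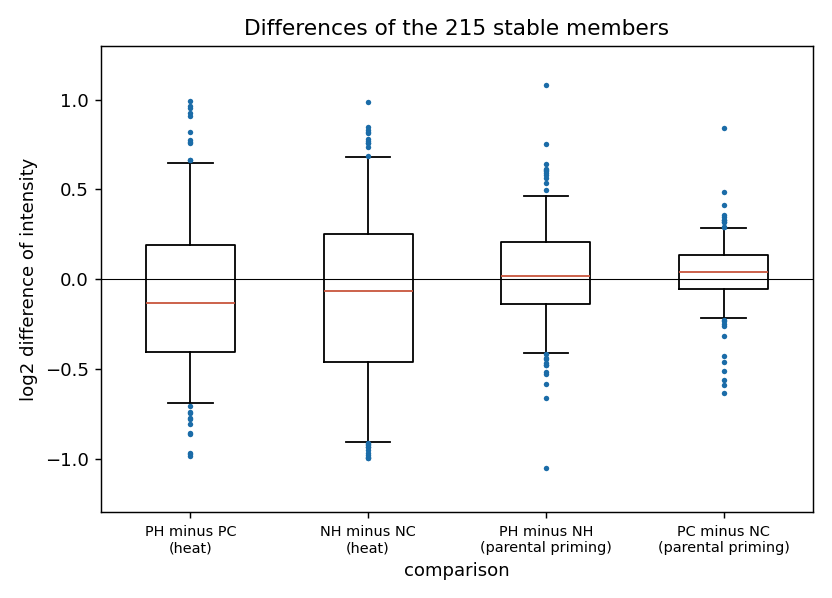
Boxes give the median and quartiles, whiskers the 5th and 95th percentiles and points the probe sets beyond, of the log2 differences of the 215 stable probe sets in both heat and both priming comparisons. The SD is 0.41 for PH minus PC and 0.47 for NH minus NC, which the selection bounds at 1, against 0.27 for PH minus NH and 0.17 for PC minus NC.

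Among stable probe sets with a symbol, PsbP and LOC732707 had the highest log2 PH minus NH, 0.61 each, with 0.03 and 0.04 for PC minus NC. Both were among the 5 highest of the whole set. LOC543250 was among the 5 lowest, with 2021 on PH against 2911 on NH and 3305 on PC against 3100 on NC. Past 2-fold in PH against NH were 2 probe sets without a symbol. The first had 3128 on PH against 1475 on NH and 3775 on PC against 2948 on NC. The second had 1957 on PH against 4059 on NH and 1766 on PC against 2606 on NC, so it was lower with priming at both temperatures. Without heat, the highest difference was that of a probe set without a symbol, with 4881 on PC against 2719 on NC. The lowest were those of both probe sets of 1 cluster, at -0.63 and -0.59. In that cluster PC was the low array, at 2227 and 1913, and PH, at 4308 and 3741, lay near NH, at 4562 and 3829.

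The steadiest and the most variable of the 215 were read from the range over the 4 arrays. All 4 values lay within 1.5-fold for 129 probe sets and within 2-fold for 199. The median range was 1.41-fold, against 5.16-fold for the 191 other bright probe sets. Limits on both heat changes narrow this range, so these values in part describe the selection. The same counts over other probe sets were not made. The narrowest range, 1.04-fold, was that of a probe set without a symbol, with 4083 on PH, 3916 on PC, 3990 on NH and 3934 on NC. Another without a symbol followed, with 3035 on PH, 3099 on PC, 3045 on NH and 2971 on NC, and the second rbcl probe set, near the top of the scale, and 1 of the cluster of TEF1 were also among the 5 narrowest. The widest range, 2.56-fold, was that of the probe set highest in PH against NH. Both probe sets of 1 cluster came next, with 4285 on PH, 2522 on PC, 5982 on NH and 3597 on NC for the first. The second had 3365 on PH, 1964 on PC, 4581 on NH and 2709 on NC. They were higher with heat by 0.76 and 0.78 for PH against PC and their log2 PH minus NH was -0.48 and -0.44. The heated array was the higher in each seed background, and NH the highest of all.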

How the data were processed

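Total RNA, 6 µg per sample, from flag leaves was hybridized to 1 Affymetrix wheat array per group; the labels name Cy3 but describe biotin labelling. The deposited values are linear intensity per probe set. MAS5 is named per the submitters' processing notes; neither its settings nor detection calls were at hand. Of 61290 probe sets, 111 Affymetrix controls and 64 reporter probe sets were left out. Values were used as deposited. For counts over all probe sets, values below the median of all values, 12.3, were raised to it before log2. Symbols came from the platform annotation: 1273 probe sets had 1 symbol, 0 several and 59842 none; 770 of 771 symbols were found in the gene table of IWGSC CS RefSeq v2.1, which served only for naming. Gene groups were patterns on names. The rule for naming took all stable probe sets with a symbol, functional symbols first, the 10 brightest, the 2 on each side of each limit, the 5 widest and 5 narrowest over the arrays, the 5 highest and 5 lowest in each priming comparison, and at most 12 bright ones outside the set; many are given as ranges. Unnamed probe sets are given by their values. Members and lists were chosen with earlier results of these data known. With 1 array per group no test was made, and the number of arrays limits precision. Alternatives were other minimums, limits and normalizations, other arrays for the minimum, and probe sets without suffixes. The selection step was run on simulated data, with changes placed inside and outside the limits and none close to them. That run does not show how probe sets near the limits are sorted. Python 3.11.15 was used with matplotlib 3.10.9, scipy 1.17.1, pandas 2.3.3 and numpy 2.4.6.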

Additional observations from a re-analysis of the deposited data

Results flagged for a closer look

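Of the 215 stable probe sets, 34 had heat changes of opposite sign in the seed backgrounds; with 1 array per group the difference was not tested. In 5 of them the changes differed by at least 0.5, and each was lower in the primed background. Over all 215, 7 were higher and 7 lower there by at least 0.5, against 136 and 18 of the 406 bright probe sets. One without a symbol had 2024 on PH against 3207 on PC and 3201 on NH against 2832 on NC, a difference of -0.841. LOC543361 had a difference of -0.61, with 2029 on PH against 2902 on PC and 2824 on NH against 2646 on NC. LOC543239 had -0.548, and another pair without a symbol -0.575 and -0.504. LOC543239 had 3 dimmer probe sets above the floor, all within 2-fold in both comparisons, and none had heat changes of opposite sign. Their log2 differences were 0.19, 0.43 and -0.11 for PH against PC, and 0.95, 0.65 and -0.06 for NH against NC.

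Some wheat control probe sets, left out of the selection, carried signal of the same size. The control for 18S ribosomal RNA had 7258 on PH, 6793 on PC, 7391 on NH and 7008 on NC, log2 heat differences of 0.10 and 0.08. The 5' ubiquitin control had 4046 on PH, 4033 on PC, 4779 on NH and 3618 on NC, and the middle one 3203 on PH, 3294 on PC, 3546 on NH and 3446 on NC.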

How the results depend on the processing

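No paired analysis was possible because each group has 1 array and the labels give no replicate numbers. The count of 215 was 606 with a minimum 0.5 times as high and 61 with 5000, 123 with limits of 0.5, and 82 without suffixes for several transcripts; under the other settings it lay between 212 and 268, but the members differed: with the minimum on NH, 169 of 220 were shared. The stable share of 53.0% was 30.3% with limits of 0.5, 66.0% with 1.5, 66.9% with the minimum on the mean of the arrays, 47.9% without suffixes and 65.8% with the limit on PH against PC alone, a setting chosen after the data were seen that leaves NH out. The median NH minus NC of -0.07 was -0.18 with limits of 1.5, 0.18 with the minimum on NH, 0.041 with the mean of the arrays and -0.23 with PH against PC alone. The median PH minus PC of -0.13 was 0.12, -0.028 and -0.24 in the last 3 of these. Both medians changed sign with the minimum on NH. The members' share of signal was 23.3% on NC and 22.3% on NH with the lower minimum, 6.42% and 5.61% with 5000, and 8.16% and 8.04% with limits of 0.5. The 2 probe sets past 2-fold between PH and NH were 0 with 5000 or limits of 0.5, 1 with either normalization, with any other array for the minimum or without suffixes, and 14 with PH against PC alone. That setting admits probe sets outside the limits in NH against NC.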
